A study of Mus musculus with 6 samples.

Results

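The genes of distal mouse chromosome 8 were taken as all genes with a start at or beyond 110000000 in the GRCm38 coordinates of the deposited expression files and a summed count of at least 600 over the 6 libraries. Of 55421 genes in the files, 423 started in this region and 141 of those reached the minimum sum. The selection left out 8 genes by name, of which 7 (Acta1, Cdh15, Nrp1, Itgb1, Map1lc3b, Cox4i1 and Rpl13) reached the minimum sum and Adamts18 did not. Thereafter 134 genes remained, starting between 110.216 and 129.264 Mb and covering 19.1 Mb. The members were selected on position and summed count, and the region itself was chosen by the log2 fold changes of its genes in this same comparison, known from an earlier look at these data, so the counts and medians over its genes are a description and were not tested as a set. Of the 281 other genes of the region under the minimum sum, 149 had 0 counts in every library, and the 43 that could be tested had a median log2 fold change of 0.13.

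The libraries came from C2C12, a mouse myoblast line that fuses into myotubes when serum is lowered. Cells had been transfected with a GFP-CUG5 or a GFP-CUG200 plasmid, in which the GFP transcript carries 5 or 200 CUG repeats, and both lines had been selected with G418 until stable. Total RNA was sequenced at differentiation day 4, in low horse serum with insulin, as 3 libraries of each line (CUG5, the normal control, and CUG200, the model of myotonic dystrophy type 1). The sources used here do not say whether each line was a clone or a pool, and nothing says that the libraries came from separate transfections, so a p-value measures the spread between these libraries only.

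In myotonic dystrophy type 1, RNA with an expanded CUG repeat is retained in nuclear foci and binds splicing factors of the muscleblind family. Genes that lie side by side on a chromosome usually share no function. Distal chromosome 8 holds housekeeping genes of DNA repair, tRNA charging, mitochondria, the Golgi and protein turnover, and also developmental regulators such as Maf.

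The libraries held 61707889 to 80957325 deposited counts, in which a read pair aligned over 300 bases stands for 4 counts. All 10 markers of muscle differentiation were present, with 17.6 TPM, a level normalized for gene length and library size, as the lowest single value. Their summed level was 6914 to 7738 TPM in CUG5 and 4469 to 5477 TPM in CUG200, 8 of the 10 passed the test as lower and 0 as higher, and their median log2 fold change was -0.60. Of 7 markers of other cell types, Ptprc, Adipoq and Epcam had 0 counts in all 6 libraries, and the 7 together summed to 2.08 to 3.19 TPM in CUG5 and 1.42 to 2.70 TPM in CUG200. The part of the lower muscle marker level in the results below was not tested, and in bulk RNA fewer cells of a type and less RNA per cell cannot be told apart.

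Distal chromosome 8 genes were mostly lower in CUG200. Their median log2 fold change, CUG200 minus CUG5, was -0.27 (quartiles -0.46 and -0.014), which is 82.9% of the CUG5 level, and 102 of the 134 values were negative. By edgeR's quasi-likelihood test at a Benjamini-Hochberg adjusted p under 0.05, 41 members (30.6%) fell and 5 (3.73%) rose, while 8.73% of all 19005 genes tested fell and 7.13% rose. Among the 13398 tested genes that reached the same minimum sum, 12% fell and 9.34% rose. The CUG200 libraries were all below the CUG5 libraries, in CPM, the counts scaled to the library size, for 69 members and all above them for 14, against 19.3% and 17.9% of all genes tested and 24.7% and 19.9% of those at the minimum sum. By edgeR, 88 members passed in neither direction. Only Maf passed the cutoffs of the study, an adjusted p under 0.05 with an absolute log2 fold change over 1, which 0.816% of genes tested passed as lower and 1.36% as higher. The count was 3 without CUG5 replicate 1 and 2 without CUG200 replicate 1, 2 or 3.

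**Figure D1:**
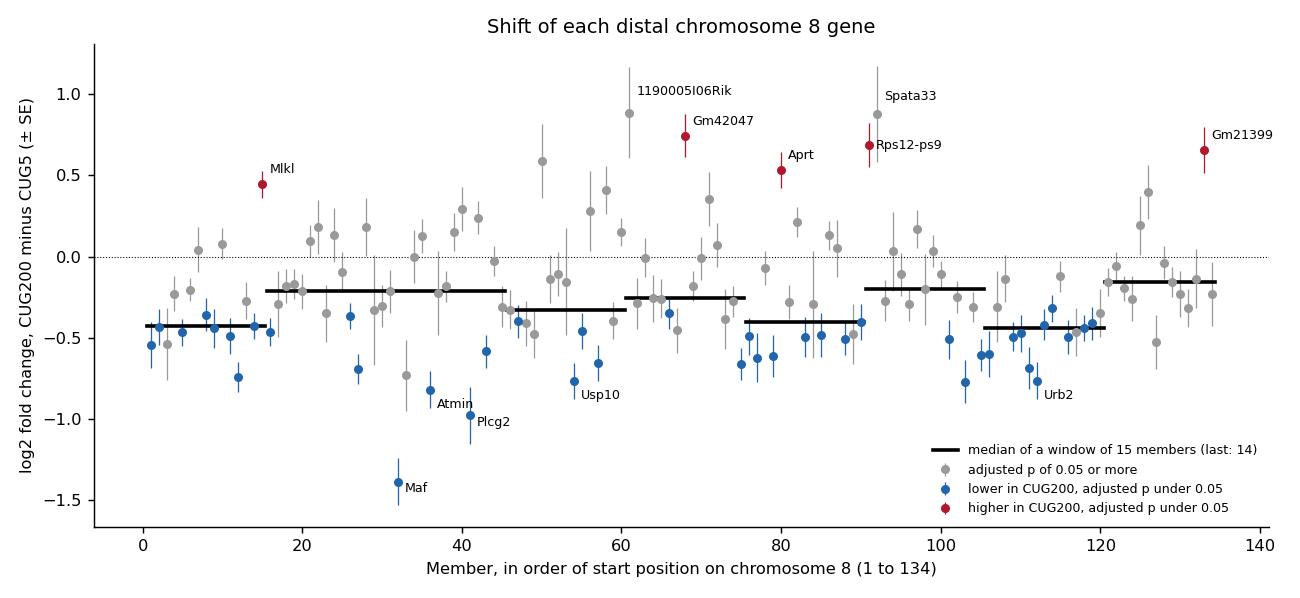
Log2 fold change of each of the 134 genes (vertical axis, CUG200 minus CUG5, error bars SE) in order along chromosome 8 (horizontal axis), with genes that passed the test in blue (lower) or red (higher) and black bars for the median of successive windows of 15 genes. All 9 window medians lie below 0, between -0.44 and -0.16, and Maf is the lowest point.

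The 41 members that fell had log2 fold changes between -1.39 and -0.32, and the 5 that rose had values between 0.45 and 0.75. The number of members called lower depended on the libraries. It was 17 without CUG5 replicate 1, 24 without CUG5 replicate 2, 16 without CUG5 replicate 3, 32 without CUG200 replicate 1, 14 without CUG200 replicate 2 and 49 without CUG200 replicate 3. Over all genes tested the share called lower moved as well, to between 2.45% and 10.7%. The median of the members stayed between -0.30 and -0.23. Of the 41 members, 12 were called lower with any 1 library left out, namely Pdpr, Terf2ip, Maf, Atmin, Plcg2, Cdh13, Usp10, 6430548M08Rik, Mvd, Dbndd1, Rhou and Urb2. Sf3b3, Taf5l and 2810004N23Rik were called in 5 of the 6 fits and Rfwd3, Spg7 and Nup133 in 4. Wdr59, Zdhhc7, Def8, Ttc13 and Gnpat were called in 3, and Vac14, Ddx19a, Aars, Kars, Cdt1, Rab4a, Abcb10 and Galnt2 in 2. Cmtr2, Mbtps1, Zcchc14, Rnf166, Ctu2, Cbfa2t3, Chmp1a and Cog2 were called in 1 and St3gal2 and Acsf3 in 0. Of the 5 members that rose, Gm42047 was called in all 6 fits, Mlkl in 4, Rps12-ps9 and Gm21399 in 3 and Aprt in 2.

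Each CUG200 library was shifted. Relative to the mean of the CUG5 libraries, the median member stood at a log2 difference of -0.26, -0.30 and -0.17 in CUG200 replicates 1, 2 and 3, and at 0.013, -0.0055 and -0.0068 in the CUG5 libraries. The CUG5 libraries make up that mean, so their values are drawn towards 0 and do not measure the spread between controls. In these CUG200 libraries 92, 91 and 79 of the 134 members (68.7%, 67.9% and 59.0%) were below every CUG5 library, against 39.1%, 41.0% and 40.6% of all genes at the minimum sum. CUG200 replicate 3 was therefore the closest of the 3 to CUG5. The 594 other genes of chromosome 8 at the same minimum sum had a median log2 fold change of -0.020, with 75 lower and 59 higher, and the 13398 genes over the whole genome had -0.015.

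**Figure D2:**
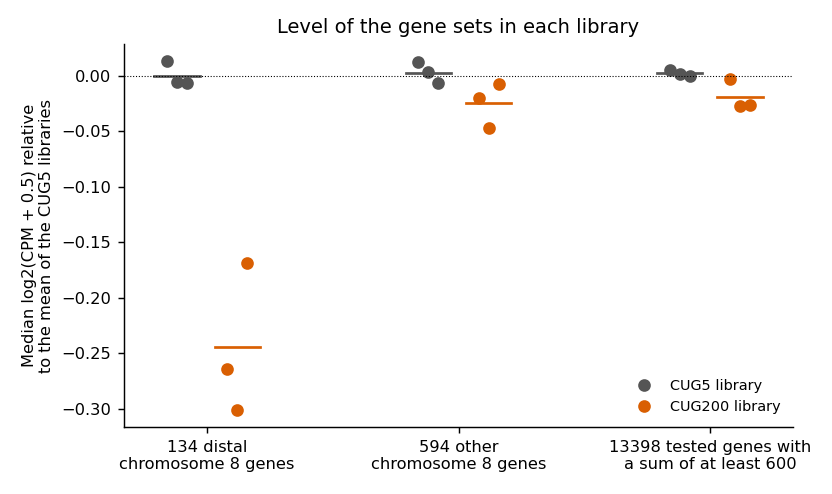
Median log2(CPM + 0.5) of 3 gene sets in each library relative to the mean of the CUG5 libraries (vertical axis), with 1 point for each library and a line for the mean of each group. The CUG200 libraries lie at -0.17 to -0.30 for the distal chromosome 8 genes and within 0.05 of 0 for the other sets.

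The start limit cut through a stretch of genes with mixed values. The last 3 genes before it had log2 fold changes of -0.026 (Atxn1l), -0.43 (Ap1g1) and -0.14 (Phlpp2), and the first 3 inside it had -0.54 (Cmtr2), -0.43 (Vac14) and -0.54 (Mtss2). At the count limit, the genes just outside were Foxl1 at 0.45 with a summed count of 530, 2810455O05Rik at 0.18 with 557 and Wfdc1 at -2.11 with 588. The genes just inside were Klhl36 at -0.15 with 612, Cntnap4 at -0.33 with 678 and Cdyl2 at -0.73 with 685. In bins of 5 Mb, the median log2 fold change of the members was -0.29 between 110 and 115 Mb, -0.22 between 115 and 120 Mb, -0.29 between 120 and 125 Mb and -0.18 between 125 and 130 Mb. Elsewhere on the chromosome it lay between -0.20, for the 34 genes between 10 and 15 Mb, and 0.35, for the 8 genes between 15 and 20 Mb. The bins between 95 and 100 Mb and between 105 and 110 Mb had medians of -0.19 and -0.14. Between 10 and 15 Mb 11 genes were lower (32.4%) and 1 higher (2.94%). Between 95 and 100 Mb 5 were lower (25%) and 1 higher (5%). A share lower like the 30.6% of the members was therefore also found at 10 to 15 Mb. Within the region, between 125 and 130 Mb, 0 were lower and 1 higher (8.33%). Chromosome 8 as a whole had a median of -0.066, the lowest of 20 chromosomes, which ranged up to 0.096 for chromosome 13.

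**Figure D3:**
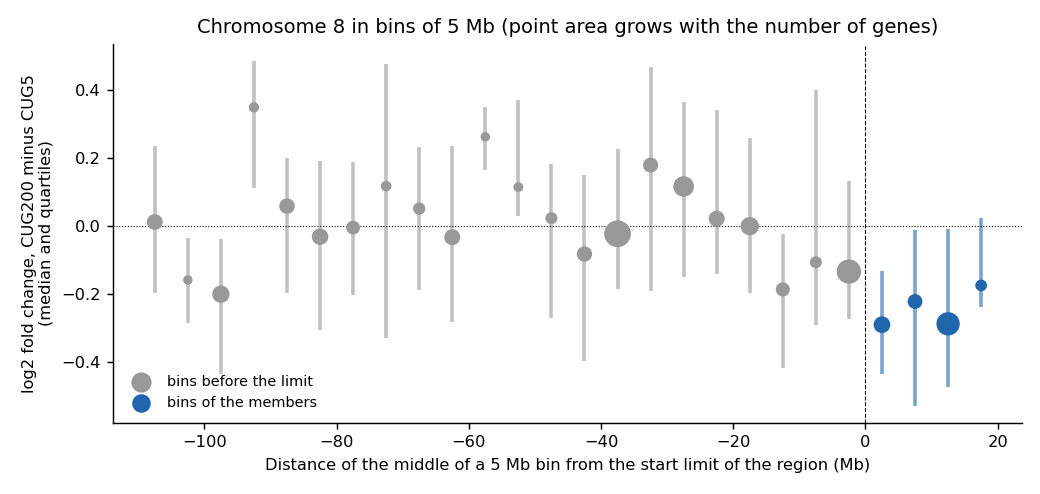
Median log2 fold change (CUG200 minus CUG5) with quartiles, vertical axis, of genes in 5 Mb bins of chromosome 8 by the distance of the middle of each bin from the start limit in Mb, horizontal axis, with point area growing with the number of genes. The 4 bins of the region have medians between -0.29 and -0.18, and the bins before it have medians on both sides of 0.

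The first 15 genes, from Cmtr2 to Mlkl (110.216 to 111.312 Mb), had a median log2 fold change of -0.43, with 8 lower and 1 higher. Cmtr2, which methylates the cap of messenger RNA, fell with a log2 fold change of -0.54. Vac14, the scaffold of the kinase that makes PI(3,5)P2, fell at -0.43 on the same scale. Sf3b3, a core subunit of the U2 snRNP, fell at -0.47, and St3gal2, a Golgi sialyltransferase, at -0.36. The RNA helicase gene Ddx19a fell, with a log2 fold change of -0.44, while its near-identical neighbour Ddx19b was at 0.08. Reads of this pair can be split between them by the counting, so the pair is uncertain. Aars, the alanyl-tRNA synthetase, fell at a log2 fold change of -0.49, and 14.3% of its exonic bases are shared on the same strand with Exosc6, which had 441 counts in all. Rfwd3, a ubiquitin ligase of DNA crosslink repair, fell at -0.43. Besides Ddx19b, the members of this stretch that did not pass were Mtss2, an actin-binding regulator of membrane shape (-0.54), Il34, a ligand of the CSF1 receptor (-0.23), Cog4, a subunit of the Golgi tethering complex COG (-0.20), Fcsk, the fucokinase (0.043), and Glg1, a Golgi sialoglycoprotein (-0.27), each as a log2 fold change.

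Pdpr, the regulatory subunit of pyruvate dehydrogenase phosphatase (chr8:111094630-111137074, plus strand), had 27.1, 26.6 and 27.7 CPM in CUG5 replicates 1, 2 and 3 and 15.4, 16.5 and 16.8 CPM in the same order in CUG200. The groups did not overlap, and Pdpr fell in CUG200 to 59.8% of its CUG5 level. Its log2 fold change was -0.74 ± 0.09 (SE, n = 3 and 3; edgeR quasi-likelihood test, Benjamini-Hochberg adjusted p = 0.0027). Mlkl, the effector of necroptosis (chr8:111311797-111338177, minus strand), lies at the end of this stretch and went the other way. It had 39.8, 41.8 and 38.4 CPM in CUG5 and 58.5, 52.3 and 52.5 CPM in CUG200, by replicate. All CUG200 libraries were above all CUG5 libraries, and the log2 fold change was 0.45 ± 0.08 (SE, n = 3 and 3; edgeR quasi-likelihood test, Benjamini-Hochberg adjusted p = 0.011). The adjusted p from the same edgeR test was 0.0509 without CUG5 replicate 1 and 0.0602 without CUG5 replicate 3, and with limma on either TPM scale it was 0.138.

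The next 15 genes, Wdr59 to Mon1b (111.449 to 113.636 Mb), had a median log2 fold change of -0.21, with 3 lower and 0 higher (also 0 higher at an unadjusted p under 0.05 and by DESeq2). Here and in the stretches below, counts at an unadjusted p have no share over all genes beside them. Wdr59, a subunit of the GATOR2 complex that passes amino acid signals to mTORC1 at the lysosome, fell at -0.46. Kars and Terf2ip, which start 75 bases apart on opposite strands, both fell. The remaining 12 did not pass and had log2 fold changes on both sides of 0. The negative ones were Znrf1, a ubiquitin ligase (-0.29), the zinc finger gene Zfp1 (-0.18), Ctrb1, a chymotrypsinogen (-0.17), Bcar1, the p130Cas adaptor of focal adhesions (-0.21), Tmem231, of the ciliary transition zone (-0.35), Adat1, a tRNA adenosine deaminase (-0.096), Cntnap4, a neurexin-like adhesion protein (-0.33), and Mon1b, of the Rab7 exchange factor (-0.30). The positive ones were Cfdp1, a chromatin protein (0.097), Tmem170, a membrane protein gene (0.18), Gabarapl2, an autophagy protein of the Atg8 family (0.14), and Gm6793, a predicted gene (0.18).

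Terf2ip encodes Rap1, the shelterin subunit bound to TRF2 at telomeres (chr8:112011398-112020528, plus strand). Its values were 24.1, 24.5 and 22.9 CPM in the CUG5 libraries and 14.8, 14.9 and 14.5 CPM in the CUG200 libraries. The groups were well apart, with all 3 CUG200 libraries within 1 CPM of each other, and the log2 fold change was -0.69 ± 0.09 (SE, n = 3 and 3; edgeR quasi-likelihood test, Benjamini-Hochberg adjusted p = 0.00331). Kars, the lysyl-tRNA synthetase of both cytosol and mitochondria, is the partner on the other strand (chr8:111993443-112011323, minus strand). It had 196, 204 and 206 CPM in CUG5 replicates 1, 2 and 3 and 153, 151 and 166 CPM in the same order in CUG200. These groups did not overlap either, and CUG200 replicate 3 was the closest to CUG5. The log2 fold change was -0.36 ± 0.08 (SE, n = 3 and 3; edgeR quasi-likelihood test, Benjamini-Hochberg adjusted p = 0.0183), and without CUG5 replicates 1, 2 or 3 or CUG200 replicate 2 the adjusted p of that test was 0.0565, 0.0739, 0.0984 and 0.0842. With limma on log2(TPM + 1) and log2(TPM + 0.1) that of Kars was 0.0557 and 0.0532.

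The stretch from Wwox to Mlycd (114.44 to 119.395 Mb) had a median log2 fold change of -0.21, with 4 of 15 lower and 0 higher (1 higher at an unadjusted p under 0.05 and 0 by DESeq2). It held the 3 lowest log2 fold changes of all members, those of Maf, Plcg2 and Atmin. Maf, a bZIP transcription factor of the AP-1 superfamily (chr8:115682942-115707794, minus strand), had 16.9, 17.4 and 22.4 CPM in CUG5 and 6.63, 7.52 and 7.55 CPM in CUG200, by replicate. The highest CUG200 library was far below the lowest CUG5 library, and CUG200 stood at 38.3% of CUG5. The log2 fold change was -1.39 ± 0.14 (SE, n = 3 and 3; edgeR quasi-likelihood test, Benjamini-Hochberg adjusted p = 0.00167). Plcg2, a phospholipase C that acts in signaling of immune receptors, fell with a log2 fold change of -0.98. Atmin, a transcription factor and interactor of the ATM kinase (chr8:116943393-116960445, plus strand), had 17.1, 17.3 and 20.04 CPM in the CUG5 libraries and 9.86, 10.2 and 10.8 CPM in the CUG200 libraries. The groups did not overlap, and the log2 fold change was -0.82 ± 0.11 (SE, n = 3 and 3; edgeR quasi-likelihood test, Benjamini-Hochberg adjusted p = 0.00369).

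Cdh13, or T-cadherin, a cadherin held in the membrane by a GPI anchor (chr8:118283733-119324921, plus strand), had the highest summed count of all members. It had 501, 472 and 517 CPM in CUG5 replicates 1, 2 and 3 and 295, 329 and 371 CPM in the same order in CUG200. CUG200 was at 66.8% of CUG5 with no overlap of the groups, and the log2 fold change was -0.58 ± 0.10 (SE, n = 3 and 3; edgeR quasi-likelihood test, Benjamini-Hochberg adjusted p = 0.00849). The other members of this stretch did not pass. Cdyl2, a chromodomain reader of histone methylation, came close with a log2 fold change of -0.73 and a Benjamini-Hochberg adjusted p of 0.0542 in the edgeR quasi-likelihood test, from a summed count of 685. Wwox, a WW domain oxidoreductase, was at -0.21, Gcsh, of the mitochondrial glycine cleavage system, at -0.18, Mlycd, the malonyl-CoA decarboxylase, at -0.31, 1700030J22Rik at -0.22 and Hsbp1, which binds heat shock factor 1, at -0.027. Positive log2 fold changes were measured for Mphosph6, a factor of the RNA exosome (0.24), Cmip, an adaptor of T cell signaling (0.29), Cenpn, a centromere protein that binds CENP-A nucleosomes (0.13), and Cmc2, of cytochrome c oxidase assembly (0.00047).

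From Osgin1 to Gins2 (119.434 to 120.579 Mb) the median log2 fold change was -0.33, with 4 of 15 lower and 0 higher (2 higher at an unadjusted p under 0.05 and 1 by DESeq2). Mbtps1, the site-1 protease that activates SREBP and ATF6, fell at -0.40. Zdhhc7, a palmitoyltransferase, fell at -0.46. Usp10, a deubiquitinase of p53 and of stress granule proteins (chr8:119910360-119957560, plus strand), had 32.9, 31.7 and 33.4 CPM in CUG5 and 16.8, 19.3 and 21.7 CPM in CUG200, by replicate. The groups did not overlap, and the log2 fold change was -0.77 ± 0.11 (SE, n = 3 and 3; edgeR quasi-likelihood test, Benjamini-Hochberg adjusted p = 0.00443). With limma on log2(TPM + 1) and log2(TPM + 0.1) the adjusted p of Usp10 was 0.0640 and 0.0614. 6430548M08Rik, a gene of unknown function (chr8:120114152-120165306, plus strand), had 39.3, 38.7 and 40.5 CPM in the CUG5 libraries and 25.3, 21.5 and 28.5 CPM in the CUG200 libraries. All CUG200 libraries lay below all CUG5 libraries, and the log2 fold change was -0.65 ± 0.11 (SE, n = 3 and 3; edgeR quasi-likelihood test, Benjamini-Hochberg adjusted p = 0.00802).

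In the same stretch, the negative log2 fold changes that did not pass were those of Taf1c, a subunit of the RNA polymerase I factor SL1 (-0.48), Hsdl1, a dehydrogenase-like protein (-0.41), Gse1, a coiled-coil protein of chromatin (-0.39), Osgin1, a growth inhibitor induced by oxidative stress (-0.33), Klhl36, a kelch protein (-0.15), Meak7, an mTOR-associated lysosomal protein (-0.14), and Cotl1, an F-actin-binding protein (-0.11). The positive ones belonged to the processed pseudogene Rps13-ps4 (0.59), the noncoding RNAs A330074K22Rik (0.41) and A130014A01Rik (0.28), and Gins2, a subunit of the GINS complex of the replication helicase (0.15).

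Between 1190005I06Rik and Mvd (120.609 to 122.434 Mb) the median log2 fold change was -0.26, with 2 of 15 lower (13.3%, near the 12% of genes at the minimum sum) and 1 higher (6.67%, against 9.34%). Mvd, the mevalonate diphosphate decarboxylase of cholesterol synthesis (chr8:122433601-122443422, minus strand), had 46.5, 38.2 and 42.7 CPM in CUG5 replicates 1, 2 and 3 and 27.8, 25.6 and 27.3 CPM in the same order in CUG200. CUG5 and CUG200 libraries did not overlap, and the log2 fold change was -0.66 ± 0.10 (SE, n = 3 and 3; edgeR quasi-likelihood test, Benjamini-Hochberg adjusted p = 0.00485). Gm42047, a lincRNA (chr8:121833247-121841178, plus strand), had 8.03, 9.32 and 9.85 CPM in CUG5 and 14.9, 13.7 and 17.1 CPM in CUG200, by replicate. Its CUG200 libraries were all above its CUG5 libraries, and the log2 fold change was 0.75 ± 0.13 (SE, n = 3 and 3; edgeR quasi-likelihood test, Benjamini-Hochberg adjusted p = 0.00924). On the log2(TPM + 1) and log2(TPM + 0.1) scales its limma adjusted p was 0.0909 and 0.0895. Zcchc14, a zinc knuckle protein, fell with a log2 fold change of -0.35.

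The other 12 genes of this stretch did not pass. 1190005I06Rik had the highest log2 fold change of all members, 0.88, with an SE of 0.28 and a summed count of 736, and 40.2% of its exonic bases are shared with Gm27021 on the same strand. Negative log2 fold changes were found for Klhdc4, a kelch protein (-0.45), Zfpm1, the GATA cofactor FOG1 (-0.38), Emc8, of the ER membrane complex (-0.29), Zc3h18, a nuclear RNA decay adaptor (-0.28), Fbxo31, a ubiquitin ligase subunit (-0.26), Foxc2, a forkhead factor of mesoderm (-0.26), Slc7a5, the amino acid transporter LAT1 (-0.18), Banp, a DNA-binding regulator of CpG-rich promoters (-0.0098), and Mthfsd, a synthetase-like protein of folate metabolism (-0.0052). Positive ones were found for the pseudogene Gm17709 (0.36) and for Zfp469 (0.071), which the annotation used here lists as a lincRNA.

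The stretch from Rnf166 to Chmp1a (122.466 to 123.204 Mb) had a median log2 fold change of -0.40, with 7 of 15 lower and 1 higher, and the running median over 15 genes was lowest within it, at -0.48 centred on Trappc2l. The highest running median was -0.0098, centred on Fbxo31 at 121.549 Mb. Centred on either neighbour, Foxc2 or Zcchc14, it was -0.18, so the value near 0 belonged to that window alone. Rnf166, a ubiquitin ligase, fell at -0.49, and its head-to-head neighbour Ctu2, which thiolates the wobble base of tRNAs, at -0.62. Cdt1, the licensing factor that loads the replicative helicase, fell with a log2 fold change of -0.61. Cbfa2t3, a transcriptional corepressor of the ETO family, fell at -0.49, Acsf3, the mitochondrial malonyl-CoA synthetase, at -0.48, Spg7, the paraplegin protease of the inner mitochondrial membrane, at -0.50, and Chmp1a, an ESCRT-III protein, at -0.40. Aprt, which salvages adenine to AMP (chr8:122574635-122576909, minus strand), rose. It had 53.8, 52.9 and 48.5 CPM in the CUG5 libraries and 81.8, 80.1 and 62.7 CPM in the CUG200 libraries. The groups did not overlap, and the log2 fold change was 0.53 ± 0.11 (SE, n = 3 and 3; edgeR quasi-likelihood test, Benjamini-Hochberg adjusted p = 0.016). Without CUG5 replicates 1, 2 or 3 or CUG200 replicate 2 the adjusted p of this test was 0.0536, 0.0569, 0.0734 and 0.0703, and with limma on the same TPM scales it was 0.0832 and 0.0811. The genes that did not pass were Dpep1, a dipeptidase (-0.48), the pseudogene Gm15899 (-0.29), Galns, a lysosomal sulfatase (-0.28), the mechanically gated channel gene Piezo1 (-0.069), 2810013P06Rik, a noncoding RNA (0.05), Ankrd11, a chromatin regulator (0.13), and Trappc2l, of the TRAPP tethering complex (0.21), given as log2 fold changes.

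From Rps12-ps9 to Rhou (123.207 to 123.654 Mb) the median log2 fold change was -0.20, with 3 of 15 lower and 1 higher. Def8, a regulator of lysosome position, fell at -0.51. Dbndd1, a dysbindin domain protein (chr8:123504718-123515463, minus strand), had 8.21, 8.76 and 7.59 CPM in CUG5 replicates 1, 2 and 3 and 4.37, 5.04 and 4.99 CPM in the same order in CUG200. Its groups did not overlap, and the log2 fold change was -0.77 ± 0.13 (SE, n = 3 and 3; edgeR quasi-likelihood test, Benjamini-Hochberg adjusted p = 0.00823). Rhou, an atypical small GTPase that acts on the actin cytoskeleton (chr8:123653929-123663884, plus strand), had 22.3, 21.8 and 22.7 CPM in CUG5 and 13.7, 15.5 and 14.7 CPM in CUG200, by replicate. Again the groups were apart, and the log2 fold change was -0.60 ± 0.10 (SE, n = 3 and 3; edgeR quasi-likelihood test, Benjamini-Hochberg adjusted p = 0.00651). Rps12-ps9, a processed pseudogene of a ribosomal protein (chr8:123206623-123207021, plus strand), had 9.69, 10.8 and 9.79 CPM in the CUG5 libraries and 17.5, 17.8 and 13.5 CPM in the CUG200 libraries. Its CUG200 libraries were above its CUG5 libraries, and the log2 fold change was 0.69 ± 0.14 (SE, n = 3 and 3; edgeR quasi-likelihood test, Benjamini-Hochberg adjusted p = 0.0131). The adjusted p of that test was 0.0559 without CUG5 replicate 1, 0.0589 without CUG5 replicate 3 and 0.0579 without CUG200 replicate 2, and reads of a pseudogene can come from its parent gene.

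The remaining genes between Rps12-ps9 and Rhou did not pass. Spata33, a mitophagy-linked protein of germ cells, had a log2 fold change of 0.88 with an SE of 0.30 and groups that overlapped. Fanca, of the Fanconi anemia core complex, was at 0.17, Tcf25, of the ribosome quality control complex, at 0.035 and Spata2l at 0.032. Negative log2 fold changes were those of Gas8, of the dynein regulatory complex of cilia (-0.31), Zfp276, a zinc finger protein (-0.29), Cdk10, a cyclin-dependent kinase (-0.27), Afg3l1, a mitochondrial protease paralog (-0.25), Spire2, an actin nucleator (-0.20), Vps9d1, a Rab5 exchange factor-like protein (-0.11), and Tubb3, a beta-tubulin (-0.11).

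The stretch from Rab4a to Exoc8 (123.806 to 124.893 Mb) had the lowest window median, a log2 fold change of -0.44. All 15 of its values were negative, and 10 genes fell by edgeR. Rab4a, a GTPase of fast endosome recycling, fell at -0.60, Nup133, a scaffold nucleoporin, at -0.49 and Abcb10, a transporter of the inner mitochondrial membrane, at -0.47. Galnt2, which starts O-linked glycosylation in the Golgi, fell with a log2 fold change of -0.42. Its exonic bases are shared to 90.0% with Gm20388, a readthrough model that was listed at 0 counts. Cog2, a COG subunit like Cog4, fell at -0.32, Ttc13, a tetratricopeptide repeat protein, at -0.49, 2810004N23Rik at -0.44 and Gnpat, the first enzyme of plasmalogen synthesis, at -0.41. Taf5l, a subunit of the PCAF histone acetylase complex, fell at -0.69. Urb2, a ribosome biogenesis factor of the nucleolus (chr8:124021508-124048505, plus strand), had 26.6, 24.9 and 27.0 CPM in CUG5 replicates 1, 2 and 3 and 14.3, 14.3 and 17.6 CPM in the same order in CUG200. The groups did not overlap, and the log2 fold change was -0.76 ± 0.11 (SE, n = 3 and 3; edgeR quasi-likelihood test, Benjamini-Hochberg adjusted p = 0.00489). The members of this stretch that did not pass had log2 fold changes of -0.46 (Arv1, a sterol homeostasis protein of the ER), -0.35 (Exoc8, of the exocyst), -0.31 (Ccsap, a centriole and cilium protein), -0.14 (Gm29773, an antisense RNA) and -0.12 (2310022B05Rik).

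The last 14 genes, from Sprtn to Gm32856 (124.898 to 129.264 Mb), had the window median closest to 0, a log2 fold change of -0.16. By edgeR 0 fell and 1 rose (7.14%), against 12% and 9.34% of genes at the minimum sum. At an unadjusted p under 0.05, 3 were lower, a count that cannot be set against a share over all genes, since none is given. By DESeq2, which called 12.3% of 17144 genes lower, 1 was lower. The CUG200 libraries were all below the CUG5 libraries for 4 members of this stretch (28.6%, against 24.7% of genes at the minimum sum), namely Tarbp1, a tRNA methyltransferase (-0.52), Pard3, a polarity scaffold (-0.31), Tsnax, of the C3PO nuclease (-0.19), and Sprtn, a protease of DNA-protein crosslinks (-0.16). Sipa1l2, a Rap GTPase activator, was at a log2 fold change of -0.26, Rbm34, an RNA-binding protein, at -0.23, Gm32856, a lincRNA, at -0.23 and Tomm20, the import receptor of the outer mitochondrial membrane, at -0.16. 2610044O15Rik8 was at -0.14, Egln1, the oxygen sensor PHD2 that hydroxylates HIF1A, at -0.058 and Irf2bp2, a transcriptional corepressor, at -0.036. Ntpcr, a nucleoside triphosphatase, was at 0.19 and Coa6, of cytochrome c oxidase assembly, at 0.40. The pseudogene Gm21399 (chr8:129252998-129253594, plus strand) had 9.97, 12.5 and 10.8 CPM in CUG5 and 16.6, 20.4 and 15.5 CPM in CUG200, by replicate. Its groups did not overlap, and the log2 fold change was 0.66 ± 0.14 (SE, n = 3 and 3; edgeR quasi-likelihood test, Benjamini-Hochberg adjusted p = 0.0181). Without CUG5 replicate 1, CUG5 replicate 3 or CUG200 replicate 2 the adjusted p of that test was 0.0726, 0.0714 and 0.0687, and with limma on the TPM scales it was 0.0568 and 0.0547.

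**Figure D4:**
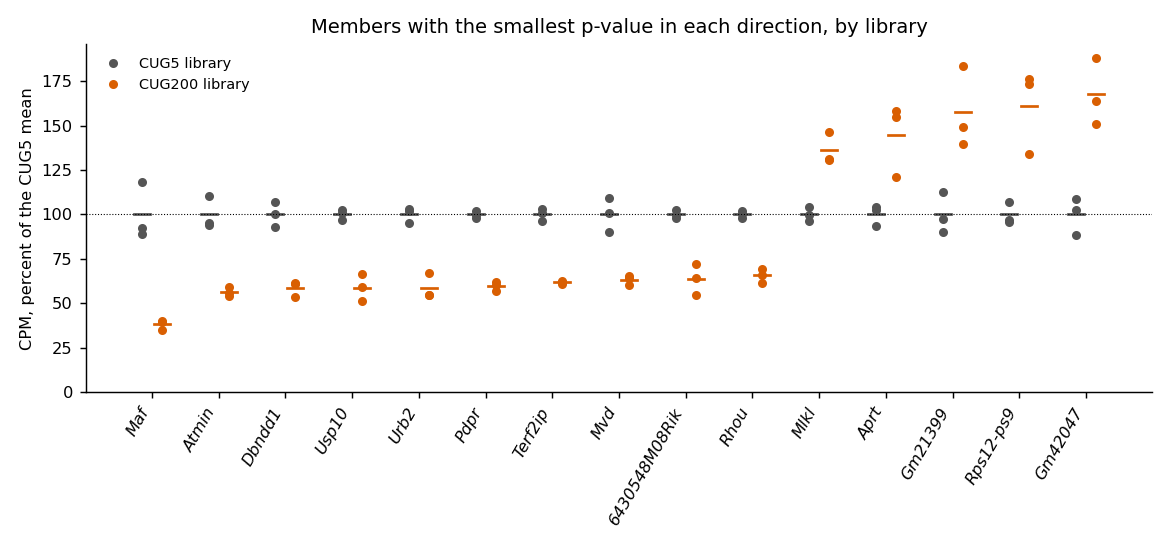
CPM of 15 members in each library as a percent of the mean of the CUG5 libraries (vertical axis), ordered by log2 fold change (horizontal axis), with 1 point for each library and a line for each group mean. The 10 members on the left have all CUG200 points below all CUG5 points, with Maf at 38.3% on average, and the 5 on the right have them above.

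Levels can be compared between genes only per length, so the most abundant members are given in TPM. On this scale the median log2 fold change of all genes at the minimum sum was itself -0.11, so TPM values of CUG200 sit slightly lower than CPM values. Hsbp1 had the highest mean, 226 TPM, with 232, 246 and 217 TPM in CUG5 and 212, 214 and 235 TPM in CUG200. Its groups overlapped in CPM. Cdh13 followed with 239, 207 and 223 TPM in CUG5 and 111, 132 and 172 TPM in CUG200, and was the only one of the 3 most abundant members with a drop past the test. Cfdp1 had 190.2, 175 and 166 TPM in CUG5 and 181, 157 and 180.5 TPM in CUG200, and its CPM log2 fold change of 0.097 became -0.035 on the log2(TPM + 1) scale. The CUG5 and CUG200 libraries of Cfdp1 overlapped as well.

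Kars was at 171, 163 and 164 TPM in CUG5 and 106, 112 and 141 TPM in CUG200. Aprt, its close neighbour in level, had 115, 105 and 93.7 TPM in CUG5 and 135, 143 and 129 TPM in CUG200, so Kars was above Aprt in all CUG5 libraries while in CUG200 the means lay in the opposite order. Tcf25 had 135, 96.1 and 87.0 TPM in CUG5 and 73.7, 82.3 and 109.8 TPM in CUG200, with a CPM log2 fold change of 0.035 that turned to -0.25 on the log2(TPM + 1) scale. CUG200 replicate 1 gave the lowest Tcf25 value. Tubb3 was at 105, 90.6 and 85.1 TPM in CUG5 and 70.1, 73.9 and 89.2 TPM in CUG200. Mphosph6 was at 62.2, 69.8 and 61.3 TPM in CUG5 and 74.7, 66.9 and 74.1 TPM in CUG200, Ctrb1 at 83.3, 68.0 and 66.6 TPM in CUG5 and 56.3, 58.3 and 62.6 TPM in CUG200 and Tsnax at 77.5, 69.9 and 69.3 TPM in CUG5 and 55.8, 56.1 and 61.4 TPM in CUG200. None of Tubb3, Mphosph6, Ctrb1 and Tsnax passed the test on counts, with edgeR adjusted p-values of 0.428, 0.147, 0.248 and 0.122.

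By role, each list of members had a negative median log2 fold change. Where a list below had 0 members higher by edgeR, DESeq2 gave 0 as well. At an unadjusted p under 0.05 there was 1 higher among the RNA processing and 1 among the membrane traffic members, with no share over all genes given. Of 10 members of DNA replication, repair and chromosome segregation, 6 fell and 0 rose, and their median was -0.41. The 6 were Terf2ip, Atmin, Rfwd3, Cdt1, Chmp1a and Nup133, while the replication and crosslink repair genes Gins2 and Fanca were at 0.15 and 0.17. Of 16 members of RNA processing, tRNA and ribosome biogenesis, 8 fell and 0 rose, with a median of -0.40. Both tRNA synthetases of the region, Aars and Kars, fell, as did the tRNA thiolase gene Ctu2, and the tRNA modifiers Adat1 and Tarbp1 did not pass at -0.096 and -0.52. Of 22 members of membrane traffic, Golgi and lysosome, 9 fell and 0 rose, with a median of -0.31. The ubiquitin and oxygen sensing list had 4 of 10 lower and 0 higher at a median of -0.36. The 4 were the ubiquitin ligase genes Rfwd3 and Rnf166, the deubiquitinase gene Usp10 and Ttc13, a tetratricopeptide repeat gene for which no such role is given here.

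Mitochondrial and metabolic genes had 7 of 18 lower and 1 higher, Aprt, with a median log2 fold change of -0.34. Pdpr, Kars, Mvd, Acsf3, Spg7, Abcb10 and Gnpat made up the 7, and the import receptor gene Tomm20 and the glycine cleavage gene Gcsh did not pass. Transcription factors and chromatin regulators had 3 of 16 lower, Maf, Cbfa2t3 and Taf5l, and 0 higher, with a median of -0.27. Adhesion, cytoskeleton, channel and signaling genes had 3 of 18 lower, Plcg2, Cdh13 and Dbndd1, and 1 higher, Mlkl, with a median of -0.24. The 29 members in none of these lists had a median of -0.12, with 4 lower and 3 higher. The share lower among all genes at the same minimum sum was 12% and their median -0.015, and no difference between the lists was tested.

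**Figure D5:**
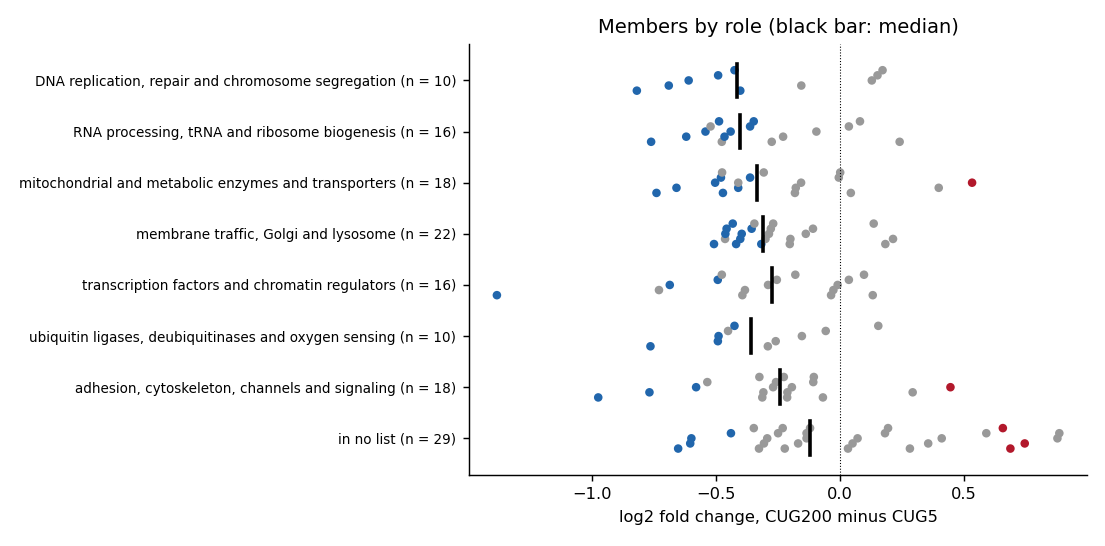
Log2 fold change (horizontal axis, CUG200 minus CUG5) of the members of each role list (rows), with members that passed the test in blue (lower) or red (higher), the others in grey and a black bar at the median of each list. The list medians run from -0.41 to -0.12, and a member in 2 lists is drawn in both.

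The medians of protein-coding and other members had opposite signs, a difference that was not tested. The 122 protein-coding members had a median log2 fold change of -0.29, with 41 lower (33.6%) and 2 higher (1.64%), against 12% and 9.34% of all genes at the minimum sum. The 12 others, made up of 5 processed pseudogenes, 4 lincRNAs, 2 noncoding RNAs from bidirectional promoters and 1 antisense RNA, had a median of 0.32, with 0 lower and 3 higher (25%) by edgeR (0 lower and 5 higher at an unadjusted p under 0.05, 0 lower and 4 higher by DESeq2). Over all 17144 genes with an adjusted p, DESeq2 called 2107 lower and 1882 higher. No share over all genes is given for the unadjusted p, and none over genes of these other kinds elsewhere in the genome. Of the 3 that rose by edgeR, Rps12-ps9 and Gm21399 are pseudogenes, whose reads can come from their parent genes. The 12 other members also differed from the protein-coding ones in level. Their summed counts were smaller, with a median of 1991 against 8244 for the protein-coding members. By strand, the medians were -0.30 for the 66 members on the plus strand and -0.23 for the 68 on the minus strand. In successive groups by summed count the median was -0.26, -0.29 and -0.20. The members had a median GC content of 53.4% in their longest transcript, against 49.4% for all genes at the minimum sum, and with trends on length, level and GC content removed their median was -0.25.

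In 14 pairs of members transcribed away from each other, the starts lay within 1000 bases of each other, and the log2 fold changes had the same sign in 10 pairs, in a region where 76.1% of all members were negative. Cmc2 with Cenpn counted among the 10 through a Cmc2 value of 0.00047, whose sign changed with library sizes alone as scaling. In 4 pairs both members fell, namely Kars (-0.36) with Terf2ip (-0.69), Rnf166 (-0.49) with Ctu2 (-0.62), Taf5l (-0.69) with Urb2 (-0.76) and 2810004N23Rik (-0.44) with Gnpat (-0.41). In 4 pairs the signs differed: Zdhhc7 with A130014A01Rik, A330074K22Rik with Gse1, Galns with Trappc2l, and Chmp1a (-0.40) with Spata33 (0.88). The spans of the 2 genes overlap at their starts for Sf3b3 and Cog4, Vps9d1 and Zfp276, and 2810004N23Rik and Gnpat, and whether the counting used strand is not given in the sources used here, so reads from these overlaps cannot be told apart.

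RefSeq promoters of GRCm38.p6, running from 250 bases before a gene's start to 50 after it, were matched by symbol for 99 members. CCGGAAG, the core bound by ETS factors that is common in housekeeping promoters, was present on either strand in 26.3% of the 99, in 37.1% of the 35 among them that fell, in 19.1% of 9590 genes at the minimum sum and in 9.12% of all 27026 promoters. GGGCGG, the GC box, was present in 73.7% of members, 74.3% of those that fell, 65.0% of genes at the minimum sum and 35.9% of all promoters. CAGCTG, an E-box bound by muscle regulatory factors, was present in 12.1% of members, 22.9% of those that fell, 15.2% of genes at the minimum sum and 16.1% of all promoters. The letters of the GC box and of CCGGAAG do not overlap in the stretches shown. Of the 11 pairs with both promoters in the table, 5 had a CCGGAAG match that lies in the promoters of both genes. Such a match counts for both genes in the shares above. In 3 of these 5 pairs both genes fell. In the others, Ttc13 and Chmp1a fell, while Arv1 (-0.46) and Spata33 (0.88) did not pass. Stretches of 30 bases around 4 of the shared matches are shown, for these 2 pairs, of which Chmp1a with Spata33 has 2 matches, and for 2 pairs in which both genes fell. Each is read 5′ to 3′ on the plus strand, with the match in capitals.
Ttc13 and Arv1, chr8:124722147-124722176: tccgccagcggCCGGAAGcaggagccctag
Kars and Terf2ip, chr8:112011343-112011372: aagtcctgcctCTTCCGGgaaagagggcgg
Chmp1a and Spata33, chr8:123212736-123212765: ctccgcgagggCTTCCGGggtcgccaccgc
2810004N23Rik and Gnpat, chr8:124863014-124863043: caccacttccgCTTCCGGcgcggcttctgc
These positions are in GRCm38.p6. Rnf166 and Ctu2, the remaining pair in which both fell, had no CCGGAAG match in either promoter, which says only that these letters are absent from these windows.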

How the data were processed

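Total RNA of 6 C2C12 libraries, 3 of CUG5 and 3 of CUG200, had been sequenced; groups and replicate numbers came from the sample titles. Per the labels and the methods, the authors trimmed reads with Trim Galore, aligned them to GRCm38 with HISAT2 and ran StringTie. The deposited gene table holds whole-number counts. The deposited file of each library holds the mean coverage and the TPM of each gene, both from StringTie. In genes with 1 transcript, 75 bases of coverage made 1 count for 99.1 to 99.2% of genes within 1 count, and the commonest low total, 300 bases, gave 4 counts, so the counts hold each read pair about 4 times. No per-sample column was left unused (0 columns).

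Genes were filtered with filterByExpr (minimum count 10), scaled by TMM (factors 0.940 to 1.05) and fitted with edgeR 4.0.16 in R 4.3.3 (robust quasi-likelihood test, CUG200 against CUG5, no covariate, Benjamini-Hochberg adjustment over all 19005 genes tested). Fold changes in the text are from this fit, and CPM used the same scaling. limma 3.58.1 on log2(TPM + 1) or log2(TPM + 0.1) and DESeq2 1.42.0 were alternatives, with others in the closing section. The edgeR test was tried on simulated data. It recovered 9 of 100 genes changed by 0.5 in log2 and 71 of 100 changed by 1, with 6 false calls. That set held 18479 genes in all. In the libraries the test called 15.9% of 19005 genes, a larger share, and the Benjamini-Hochberg cutoff depends on this share. The shares recovered are therefore not those for the members, for which the recovery was not tested. A member that did not pass can still have changed. An SE is the log2 fold change divided by the root of its F value.

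Members, role lists and the window of 15 genes were chosen with earlier results of these data known. Values in every library are given for the 10 members with the smallest p-value among those lower in CUG200 without overlap of the groups, the 5 smallest among those higher, and the 10 with the highest mean TPM; a gene in both counts under both, and every other member is named with its log2 fold change, except 1 that is counted but not reported here. Promoters came from RefSeq. Gene spans of 132 of 134 members were the same as in GENCODE M21, and 54 members overlap another gene's span on the same strand. Depth was 61707889 to 80957325 counts, at which 3 counts in a library are 0.0371 to 0.0486 CPM.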

Additional observations from a re-analysis of the deposited data

How the results depend on the processing

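Of the values that answer the comparison, the 41 members lower, 5 higher, 1 past the cutoffs of the study and the median of -0.27 were recomputed under the alternatives, except that the number past the cutoffs was not recomputed for a higher minimum sum or without overlapping members, and the trends concern the median alone. With 1 library left out, the number lower ran from 14 to 49, the number higher from 1 to 7, the number past the cutoffs from 1 to 3 and the median from -0.30 to -0.23. On log2(TPM + 1) with limma, 17 were lower and 1 higher, and the median was -0.34. With log2(TPM + 0.1) the values were 19, 1 and -0.38, and 2 members passed the cutoffs. On these scales 12 members changed sign, and the median of all genes at the minimum sum was -0.11 and -0.13. The share of all 19005 genes tested that was called lower fell as well, to 4.29% and 4.47%, against 8.73% by edgeR. DESeq2 gave 8 higher and 50 lower, and all 41 members lower by edgeR were among the 50. Of the 17144 genes with an adjusted p from DESeq2, 12.3% were called lower, so DESeq2 called a larger share over all genes as well. Without the 54 members that overlap another gene's span on the same strand, 80 remained, of which 23 were lower and 3 higher. Fewer genes in the last of these and fewer libraries in the first account for part of the lower counts by construction. For the others the cause was not tested. Library sizes alone, DESeq2 size factors, TMM from genes outside chromosome 8, no filter, counts divided by 4 and a minimum sum of 2400 left the counts lower and higher within 1.5 times, and under these and the trend on length and level the median lay between -0.29 and -0.25. The trend with GC content (-0.25) and putting back the 7 left-out genes (44 lower, 6 higher, -0.27) were added after the data were seen.

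With the replicate number as a replicate block, 37 members were lower, 5 higher and the median was -0.27. Deviations of same-numbered libraries correlated at 0.11, 0.052 and 0.054, and those of differently numbered ones at -0.10 to 0.048. The same-numbered values were the highest but small, and whether the numbers mark a pairing was not tested.

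For the 24 members with values in every library, 325 of 360 alternative values kept direction and side of the threshold, 28 lost the call and 7 changed sign. The sign changes were those of Cfdp1 (-0.035 on both TPM scales), Tcf25 (-0.25 on both, and -0.055 without CUG200 replicate 3, in a range of -0.055 to 0.11 with 1 library left out) and Hsbp1 (0.048 without CUG5 replicate 2 and 0.00016 without CUG200 replicate 3, in a range of -0.063 to 0.048), none of which passed the test. The lost calls were those of Mlkl, Aprt, Rps12-ps9, Gm21399, Kars, Gm42047 and Usp10, the last 2 only on the TPM scales.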
